A study of Homo sapiens with 6 samples.

Results

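ACAT2, HMGCS1, PMVK, MVD, IDI1 and GGPS1 encode enzymes that lead from acetyl-CoA to the isoprenoid diphosphates, the mevalonate branch of lipid biosynthesis. These genes were taken by name from a published step order and do not cover all of its steps. All 6 were found among the 6357 assembled loci of the table, each as 1 locus. Of these loci, 4926 carried a gene name. The cells were HepG2, a line derived from a human liver tumour, either wild type (WT) or with fructosamine-3-kinase removed by CRISPR (FN3K KO). FN3K phosphorylates sugars that have become attached to lysine residues of proteins. Each group had 3 libraries, 1 for each of 3 plates grown in Eagle's medium with fetal bovine serum and no other treatment. The number of KO clones is not given in the sources used here, so the p-values measure the spread between plates of a genotype. The question was which of these enzymes had a different mRNA level in the FN3K KO cells.

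The mevalonate pathway joins acetyl-CoA units into mevalonate and then into isopentenyl diphosphate, the building block of isoprenoids. Liver cells send most of it to cholesterol, and smaller amounts to dolichol, to the side chain of ubiquinone and to the lipid anchors of small GTPases. Transcription of many of its genes is raised by SREBP-2, a membrane-bound factor that is released when sterols in the endoplasmic reticulum are low.

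Levels are FPKM, fragments per length of transcript and per total of mapped fragments, which can be compared between genes because they are per length. FPKM summed over all loci lay between 289983 and 314164 per library, and the number of sequenced reads is not known. Pearson correlations of log2(FPKM + 1) across loci, which are not independent replicates, were at least 0.980 within the groups and at most 0.931 across them. FN3K had 21.9 to 27.7 FPKM in WT and 0.704 to 1.03 FPKM in FN3K KO, in the direction of the labels. Of 14 hepatocyte markers 10 were analysed, and their summed level was 11341 to 11488 FPKM in WT and 17870 to 19016 FPKM in FN3K KO. In the test used for the enzymes 6 were higher and 1 lower, beside 21.2% and 36.5% of all loci. AFP rose from 1537 ± 14.3 to 6206 ± 410 FPKM (SD, n = 3), while SERPINA1, TF and AHSG were not called and HNF4A fell. With the library adjustment of Ballgown, described below, only AFP, APOA1, APOB and TTR stayed called, all higher. The markers analysed for other cells were CD14 of 6 blood cell markers, which rose from 1.63 ± 1.10 to 14.5 ± 1.47 FPKM (SD, n = 3), and 3 of 4 cholangiocyte markers. Of these KRT19 rose from 38.3 ± 2.47 to 137 ± 8.27 FPKM, EPCAM fell from 116 ± 3.54 to 34.7 ± 1.52 FPKM, and SOX9 had 87.1 ± 2.99 and 80.8 ± 3.96 FPKM (limma adjusted p = 0.13). Their sum was 238 to 247 FPKM in WT and 240 to 260 FPKM in FN3K KO. The 10 endothelial and fibroblast markers had 0 analysed here. The part of these markers in the results was not tested, and in bulk RNA a change in the number of cells of a type cannot be told apart from a change in RNA per cell.

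In FN3K KO cells 4 of the 6 enzymes were several times higher, GGPS1 was slightly higher and PMVK did not pass the test. HMGCS1 and MVD stood highest, at almost the same fold change, followed by IDI1 and ACAT2. In limma, with Benjamini-Hochberg adjustment over all loci, 5 of the 6 rose at an adjusted p under 0.05, beside 21.2% of all loci tested. The same 5 had every FN3K KO library above every WT library, beside 23.6% of all loci. This non-overlap corresponds to a two-sided exact permutation p of 0.10, the smallest that 3 libraries against 3 allow. Across all loci, log2 fold changes had a median of -0.14. With the library adjustment of Ballgown, the package that the study used, 4 of the 6 rose, GGPS1 being lost, and all loci divided into 606 higher and 521 lower in place of 1348 and 2322.

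**Figure D1:**
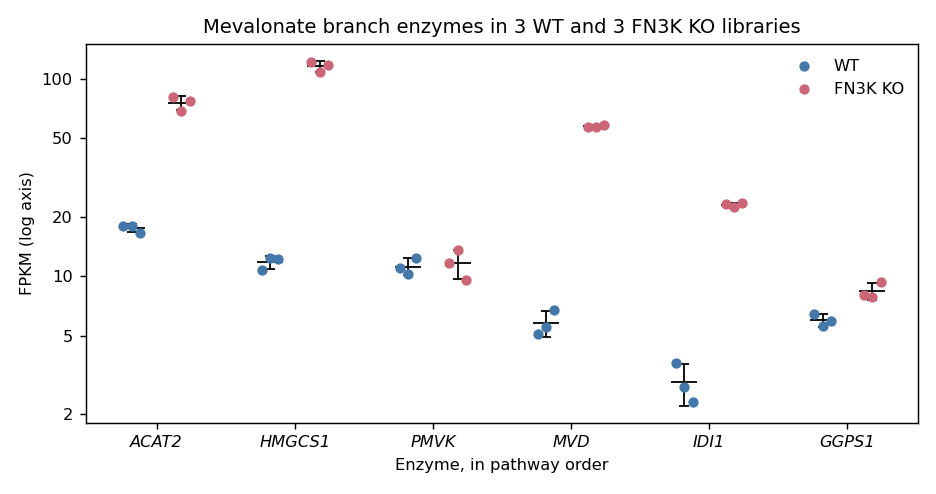
FPKM on a log axis for the 6 enzymes in pathway order, with 1 point per library, a bar at the mean and whiskers of 1 SD (n = 3 per group). The WT and FN3K KO points are apart for ACAT2, HMGCS1, MVD, IDI1 and GGPS1, and overlap for PMVK.

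ACAT2 is the cytosolic thiolase that condenses a pair of acetyl-CoA molecules to acetoacetyl-CoA, the first step. It lies on chromosome 6 from 159760328 to 159779055, on the plus strand, and the locus is listed by a protein-coding transcript. It had 17.97, 18.06 and 16.57 FPKM in WT libraries 1, 2 and 3, and 80.8, 68.9 and 77.0 FPKM in FN3K KO libraries 1, 2 and 3. The lowest KO library was thus well above the highest WT library, by a factor of 3.81. The log2 fold change on the scale of log2(FPKM + 1) was 2.04 with an SE of 0.07 and an adjusted p of 1.2e-07 in limma. The first 2202 bases of the gene overlap SOD2 on the other strand, and its last 558 bases overlap TCP1. SOD2 had a log2 fold change of 0.92 and TCP1 of -0.30, and the sources used here do not give whether counting used the strand.

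HMGCS1 makes HMG-CoA from acetoacetyl-CoA and a further acetyl-CoA in the cytosol. The gene lies on the minus strand of chromosome 5 from 43289395 to 43313512. WT libraries 1, 2 and 3 had 10.8, 12.3 and 12.2 FPKM, and the KO libraries had 122, 108 and 118 FPKM. It was the highest of the 6 enzymes in every KO library, and its mean rose 9.84-fold. The log2 fold change was 3.19 with an SE of 0.07 and an adjusted p of 1.9e-08 in limma. It was the fifth highest of all loci.

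The phosphorylation steps were represented by PMVK alone, which adds the second phosphate to mevalonate. It is on chromosome 1 from 154924734 to 154936991, minus strand. PMVK had 11.0, 10.2 and 12.4 FPKM in the WT libraries and 11.7, 13.6 and 9.62 FPKM in the KO libraries. The KO values lay on both sides of the WT range. The log2 fold change was 0.04 with an SE of 0.12 and an adjusted p of 0.79 in limma, and leaving out single libraries gave -0.07 to 0.16, negative without WT replicate 2 or KO replicate 2. The coefficient of variation of PMVK was 9.87% in WT and 17.0% in FN3K KO.

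MVD decarboxylates mevalonate diphosphate to isopentenyl diphosphate, and is the step after PMVK. It is on the minus strand of chromosome 16 from 88651935 to 88663161. The locus is listed by a transcript that GENCODE types as a retained intron, and it is not known here how much of the value belongs to the coding transcript. WT libraries had 5.09, 5.54 and 6.73 FPKM, and KO libraries had 57.2, 57.2 and 58.4 FPKM. The KO values were close to each other and at least 8.50 times the highest WT value. The log2 fold change was 3.12 with an SE of 0.09 and an adjusted p of 4.4e-08 in limma. It came next in rank after HMGCS1 among all loci.

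IDI1 interconverts isopentenyl diphosphate and dimethylallyl diphosphate, the pair of units that prenyl chains start from. The gene is on the minus strand of chromosome 10 from 1039152 to 1049170, and 5050 of its bases overlap the antisense gene IDI2-AS1. IDI1 was the lowest of the 6 in every WT library, with 3.64, 2.75 and 2.30 FPKM, and had 23.1, 22.3 and 23.4 FPKM in the KO libraries. All KO libraries were more than 6 times the highest WT library. The log2 fold change was 2.63 with an SE of 0.12 and an adjusted p of 8.3e-07 in limma. At these low WT levels the pseudocount lowered the fold, which was 7.92 as a ratio of mean FPKM and 6.20 in limma.

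GGPS1 joins farnesyl diphosphate and isopentenyl diphosphate to geranylgeranyl diphosphate, a lipid anchor of many small GTPases. It lies on the plus strand of chromosome 1 from 235327350 to 235344532. It had 6.44, 5.57 and 5.93 FPKM in WT and 7.99, 7.84 and 9.33 FPKM in FN3K KO. The groups did not overlap, but the gap was small next to those of HMGCS1, MVD, IDI1 and ACAT2. The log2 fold change was 0.43 with an SE of 0.11 and an adjusted p of 0.0079 in limma. The call was lost with the library adjustment of Ballgown, at 0.31 and an adjusted p of 0.22. TBCE, whose annotation covers 15963 bases of GGPS1 on the same strand, had a log2 fold change of -0.20 (limma adjusted p = 0.11).

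**Figure D2:**
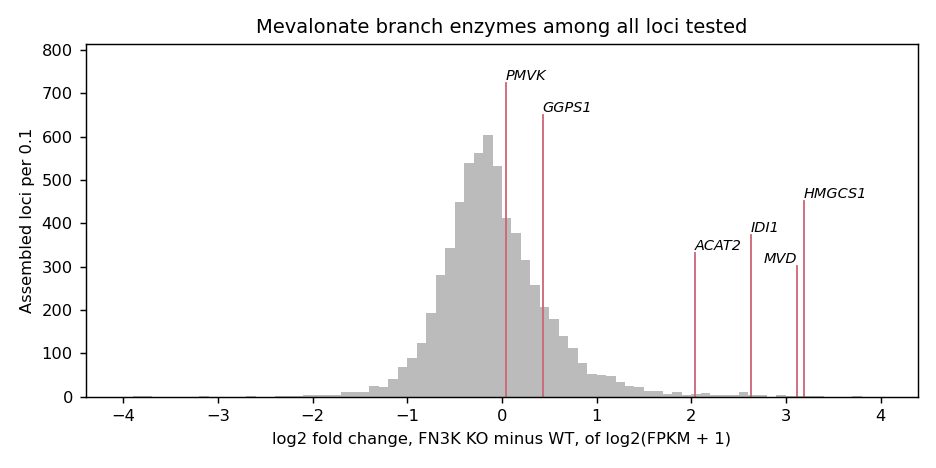
Histogram of log2 fold changes (FN3K KO minus WT, of log2(FPKM + 1)) of all 6357 loci in bins of 0.1, with a line at each enzyme; the height of a line has no meaning. ACAT2, IDI1, MVD and HMGCS1 lie in the right tail at 2.04 to 3.19, while PMVK at 0.04 and GGPS1 at 0.43 lie within the main body.

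Among all loci 99.2% had a lower log2 fold change than ACAT2, 99.7% a lower one than IDI1 and 99.9% a lower one than MVD or HMGCS1. For GGPS1 this share was 84.3% and for PMVK 64.6%. To compare the enzymes with each other, the log2 ratio of each of the 15 pairs was taken within each library and tested with a two-sided exact permutation test, adjusted over the 15 pairs. HMGCS1 over MVD was 0.92 ± 0.13 in WT against 0.99 ± 0.08 in KO (SD, n = 3, exact p = 0.50), and the groups overlapped at a difference of 0.08. PMVK over GGPS1 was 0.80 ± 0.13 and 0.42 ± 0.35, and also overlapped (exact p = 0.20). HMGCS1 over PMVK went from 0.07 ± 0.16 to 3.22 ± 0.29, a shift of 3.15 with no overlap (exact p = 0.10, adjusted p = 0.115). PMVK over MVD, adjacent steps, went from 0.85 ± 0.11 to -2.23 ± 0.24 with no overlap. HMGCS1 over ACAT2, also adjacent steps, turned: ACAT2 was the higher by 0.54 ± 0.14 in WT, and its log2 ratio to HMGCS1 was -0.61 ± 0.03 in FN3K KO.

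The order of the levels therefore differed between the groups. In WT it was ACAT2, HMGCS1, PMVK, GGPS1, MVD and IDI1 by mean FPKM. The ranges of HMGCS1 and PMVK overlapped, as did those of GGPS1 and MVD, so these neighbours did not differ beyond their spread. In FN3K KO the order was HMGCS1, ACAT2, MVD, IDI1, PMVK and GGPS1 in each library. There each neighbour's range was apart from the next, though for PMVK and GGPS1 only by 9.62 against 9.33 FPKM. In WT the mean of IDI1 was above those of 9.12% of loci, and in FN3K KO above those of 69.8%. HMGCS1 moved from above 45.2% of loci to above 94.8%.

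Summed over the 6 enzymes, FPKM was 55.2 ± 0.852 in WT against 292 ± 12.6 in KO (SD, n = 3). HMGCS1 made up 21.3 ± 1.51% of this sum in WT and 39.7 ± 0.681% in FN3K KO, and MVD 10.5 ± 1.38% and 19.8 ± 0.833%. The share of PMVK was 20.3 ± 1.68% in WT and 4.0 ± 0.82% in FN3K KO, while its own FPKM overlapped between the groups. The share of GGPS1 was 10.8 ± 0.785% in WT and 2.87 ± 0.262% in FN3K KO, and that of ACAT2 was 31.8 ± 1.98% and 25.8 ± 0.977%.

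**Figure D3:**
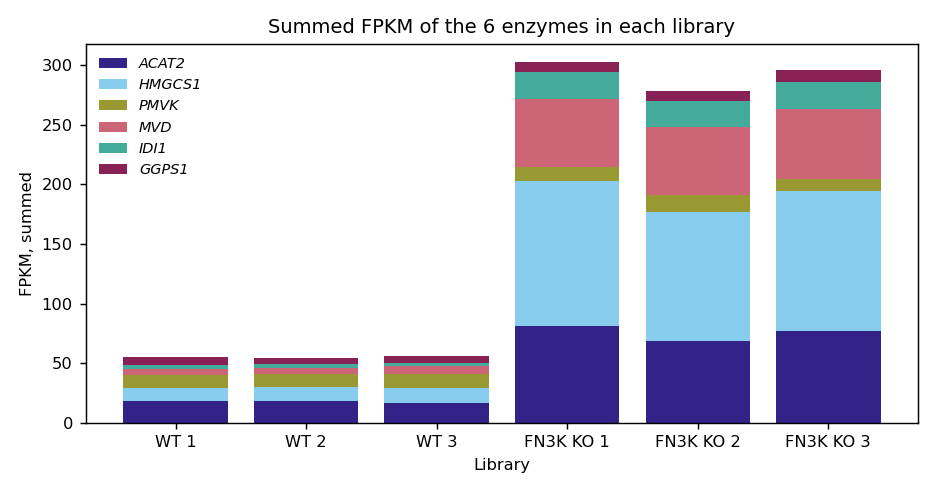
Stacked bars of FPKM of the 6 enzymes in each of the 6 libraries, in pathway order from the bottom. The sum lies between 54.5 and 56.1 in the WT libraries and between 278 and 302 in the FN3K KO libraries, and HMGCS1 takes the largest part of each KO bar.

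The DNA before the start sites of some of the enzymes is shown. Promoter windows of RefSeq (GRCh38.p14, 250 bases before and 50 after a start site) were listed for 5 of the 6 genes, in 10 windows, and ACAT2 had none. They were searched on both strands for CCAAT, the box bound by NF-Y, which acts with SREBP on sterol genes; for TCACNCCAC, the core of a sterol regulatory element; and for GGGCGG, the box bound by Sp1. A hit of 1 motif may overlap one of another. Only windows with a CCAAT box are shown, and windows of IDI1 and GGPS1 without one were left out. The stretches below run 5′ to 3′ on the gene's strand, outside annotated exons of the gene, with CCAAT or its complement ATTGG in capitals. They are MVD (chr16:88663162-88663341, minus strand), IDI1 (chr10:1049171-1049369, minus strand), HMGCS1 (chr5:43313513-43313662, minus strand) and, as the enzyme with a small change, GGPS1 (chr1:235328320-235328398, plus strand).
MVD: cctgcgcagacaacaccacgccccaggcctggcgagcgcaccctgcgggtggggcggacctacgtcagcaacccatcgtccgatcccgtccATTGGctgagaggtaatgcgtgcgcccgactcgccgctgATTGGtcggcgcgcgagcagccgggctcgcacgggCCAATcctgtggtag
IDI1: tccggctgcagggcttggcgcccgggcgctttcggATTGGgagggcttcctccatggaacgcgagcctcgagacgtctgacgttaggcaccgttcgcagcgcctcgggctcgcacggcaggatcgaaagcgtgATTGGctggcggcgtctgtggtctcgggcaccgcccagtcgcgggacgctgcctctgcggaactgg
HMGCS1: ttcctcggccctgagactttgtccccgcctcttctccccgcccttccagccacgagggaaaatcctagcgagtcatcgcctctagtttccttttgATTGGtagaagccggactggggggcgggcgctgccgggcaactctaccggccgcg
GGPS1: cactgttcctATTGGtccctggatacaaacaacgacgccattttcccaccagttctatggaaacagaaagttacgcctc

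The whole window of MVD held 3 CCAAT boxes, at 159, 120 and 85 bases before the start site. The IDI1 window shown held 2, at 215 and 117 bases before the start site, and another IDI1 window held 3, of which a pair overlapped as complements. The HMGCS1 window held 2, at 155 and 100 bases before the start site, the latter starting at the first base of an annotated exon and so outside the stretch shown. Of 3 GGPS1 windows the one shown held 1. The other GGPS1 windows, a further window each of HMGCS1 and IDI1 and the single PMVK window held 0, so that 5 of the 10 windows had no CCAAT box. Of all 35116 windows in the RefSeq table, 34.6% held at least 1 CCAAT box, 10.8% at least 2 and 3.26% at least 3. TCACNCCAC was in 0 of the 10 windows and in 1.13% of all windows. GGGCGG was in the windows shown of MVD (1), IDI1 (1), HMGCS1 (2) and GGPS1 (2) and in that of PMVK (1). It was also in the other HMGCS1 window (2), the other IDI1 windows (3 and 4) and another GGPS1 window (2). The remaining GGPS1 window held 0. Of all windows, 45.0% held at least 1 GGGCGG. These are matches of letters only.

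Likeness of pattern was measured as the Euclidean distance between profiles of log2(FPKM + 1) over the 6 libraries, each less its own mean, among named loci with a mean of at least 1 FPKM. The nearest to HMGCS1 were MSMO1, a sterol demethylation enzyme, at 0.198, then CYP17A1 at 0.235 and MVD at 0.239. Among the 3 nearest to MVD were HMGCS1 at 0.239 and CYP17A1 at 0.310. ACAT2 was nearest to AFP at 0.103, a fetal plasma protein, then to SC5D at 0.165 and CIDEB at 0.167. IDI1 was nearest to APOA4 at 0.158, PLG at 0.299 and OR2I1P at 0.341. GGPS1 was nearest to TMEM104, ATP6V0E1 and HPRT1, all at 0.106 or less, and PMVK to CDIP1, AP2A2 and PRPF4, at 0.182 to 0.188. With a pseudocount of 0.1 in place of 1, 12 of the 18 places were kept. CYP17A1, at 0.526 ± 0.0807 FPKM in WT (SD, n = 3), lost its places beside HMGCS1 and MVD. The other places lost were those of SC5D, PLG, ATP6V0E1 and HPRT1.

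ACAT1, the mitochondrial paralog of ACAT2 in ketone body and isoleucine metabolism, went from 35.3 ± 1.57 to 42.9 ± 0.652 FPKM (SD, n = 3). Its log2 fold change was 0.28 with an SE of 0.05 and an adjusted p of 0.0026 in limma. MVK, FDPS and IDI2 were not analysed here. Among 5 analysed genes of ketone body metabolism 4 rose, at a median of 0.60, beside 21.2% of all loci. With the library adjustment of Ballgown 1 rose, beside 9.53% of all loci, and ACAT1 was not called.

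For the lists that follow, the shares of all loci are 21.2% higher and 36.5% lower in limma, or under the library adjustment 9.53% and 8.2%. Of 5 analysed genes of acetyl-CoA supply all rose, with a median of 0.73, and 3 with the library adjustment. PDHA1 passed narrowly, at 0.25 and an adjusted p of 0.046 in limma, and its groups overlapped. The count was 4 with a pseudocount of 0.1, and also without WT replicate 1 or 2 or KO replicate 1 or 3. ACSS2, which makes acetyl-CoA from acetate, went from 6.43 ± 0.534 to 57.2 ± 5.43 FPKM (SD, n = 3), and ACLY, which makes it from citrate, from 28.4 ± 1.42 to 90.2 ± 3.73 FPKM. In the branch from farnesyl diphosphate to cholesterol 10 of 11 rose under both models, with a median of 2.32 in limma. FDFT1, which commits farnesyl diphosphate to squalene, went from 14.7 ± 0.681 to 85.7 ± 5.24 FPKM, a log2 fold change of 2.46 with an SE of 0.06 and an adjusted p of 2.4e-08 in limma.

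Together, the lists on the other side of that branch point held calls of both signs, as all loci did. Of 4 analysed genes of protein prenylation 3 rose and 1 fell, with a median of 0.27, beside 21.2% and 36.5% of all loci. With the library adjustment 1 rose. RABGGTA, the alpha subunit of the Rab geranylgeranyl transferase, had a log2 fold change of 1.05, while FNTA, the alpha subunit shared by the farnesyl and the other geranylgeranyl transferase, had -0.54. Neither of these calls was kept with the library adjustment. In the dolichol list, with a median of -0.07, 1 of 6 rose and 1 fell, beside 21.2% and 36.5% of all loci. The one that fell was NUS1, a subunit of the cis-prenyl transferase, at -0.49 with an SE of 0.07 and an adjusted p of 5.6e-04 in limma. Of the ubiquinone list only COQ4 and COQ5 were analysed, and COQ4 fell, at -0.45. Neither call of the dolichol list nor that of COQ4 was kept with the library adjustment. Among 18 analysed GTPases that carry prenyl anchors 6 rose and 3 fell, with a median of 0.04, beside 21.2% and 36.5% of all loci, and with the adjustment 3 rose and 1 fell. RHOC rose most, from 41.7 ± 2.51 to 84.0 ± 3.86 FPKM (SD, n = 3), and RALA fell most, from 21.6 ± 1.74 to 12.4 ± 0.994 FPKM, a call lost with the adjustment.

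**Figure D4:**
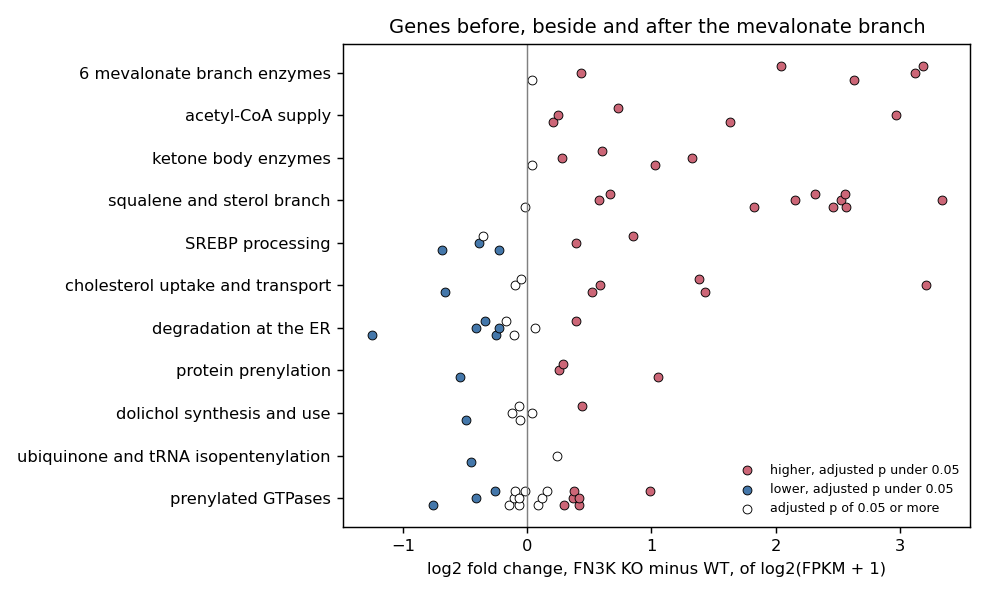
Log2 fold changes (FN3K KO minus WT, of log2(FPKM + 1)) of the 6 enzymes and of the genes of 10 lists, with 1 point per gene, filled where the limma adjusted p was under 0.05. The enzymes lie between 0.04 (PMVK) and 3.19 (HMGCS1), and the sterol branch, with 11 genes analysed, has a median of 2.32. The lists of prenylation (4 genes), dolichol (6), ubiquinone (2) and GTPases (18) have medians from -0.11 to 0.27.

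The genes that control the pathway also went both ways. Of 6 analysed genes of SREBP processing 2 rose and 3 fell (median -0.29), beside 36.5% of all loci that fell, and with the library adjustment 1 rose and 1 fell. SREBF2, which encodes SREBP-2, went from 28.1 ± 1.22 to 51.5 ± 1.70 FPKM (SD, n = 3). This was 0.85 on the log2 scale with an SE of 0.06 and an adjusted p of 5.5e-06 in limma. SCAP, its escort protein, was at -0.39 with an SE of 0.06 and an adjusted p of 5.3e-04 in limma, and MBTPS1, the protease that makes the first cut, at -0.69 with an SE of 0.09 and an adjusted p of 2.2e-04 in limma. The call of MBTPS1 was lost with the adjustment. Of 9 analysed genes of protein degradation at the endoplasmic reticulum 5 fell and 1 rose, with a median of -0.23. This count of 5 was 3 without WT replicate 2 or KO replicate 1, and 1 with the library adjustment. SEL1L, a scaffold of the ubiquitin ligase complex of the endoplasmic reticulum, went from 25.9 ± 3.08 to 10.3 ± 0.958 FPKM. Of 8 analysed genes of cholesterol uptake and transport 5 rose and 1 fell, with a median of 0.56, and 3 rose under the adjustment. ABCG8, a subunit of a sterol exporter, had -0.66 with an SE of 0.14 and an adjusted p of 0.0042 in limma, a call lost with the adjustment.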

How the data were processed

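RNA sequencing libraries of WT and FN3K KO HepG2 cells, 3 plates each, were analysed. Per the labels, mRNA was enriched on oligo(dT) beads. The authors aligned reads using HISAT2 and estimated expression using StringTie, and the deposited table gives FPKM for each locus in each library. The processing notes of the submitters name StringTie 2.0.6 and GRCh38.p5. The filter on loci is not given in the sources used here, and depth is unknown, so no detection limit was computed. Columns were matched to libraries by the sample titles.

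All 6357 loci were fitted on log2(FPKM + 1) by limma 3.58.1 under R 4.3.3, using lmFit and trended eBayes, and p-values were adjusted by Benjamini-Hochberg over all loci. Fold changes on this scale understate those of low loci. The fit was also run on simulated data in which few loci changed. That setting is unlike these data, so no support is drawn from it. Other settings tried were a linear model with the default library adjustment of Ballgown, which the study used without giving this setting, scaling by the 75th percentile, omission of the trend, loci of at least 1 FPKM on average, a pseudocount of 0.1, a replicate block, and leaving out each library. The model with the library adjustment used ordinary t-tests without eBayes. Gene lists are described by counts and medians. The members, lists and rules were chosen with earlier results of these data known. Named were the 6 enzymes, FN3K, genes of the 11 lists and the 3 nearest profiles of each enzyme. Overlapping genes were named after their values were seen, as were the extremes of a list. Some genes of the lists are not reported here by name. Coordinates are from GENCODE 29 on GRCh38 through the listed transcripts. The rest was computed in Python 3.11.15 (scipy 1.17.1, numpy 2.4.6, pandas 2.3.3) and drawn by matplotlib 3.10.9.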

Additional observations from a re-analysis of the deposited data

How the results depend on the processing

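Of 84 values of single enzymes and FN3K under the alternatives, 81 kept their direction and their side of an adjusted p of 0.05. The exceptions were GGPS1 with the library adjustment of Ballgown, at 0.31 (adjusted p = 0.22), and PMVK, whose log2 fold change turned to -0.02 without WT replicate 2 and to -0.07 without KO replicate 2. The ratio of HMGCS1 to MVD turned from 0.08 to -0.02 with a pseudocount of 0.1. With each library left out, the log2 fold change of PMVK was between -0.07 and 0.16, the count of higher enzymes was 5 each time, the count of lower genes of degradation at the endoplasmic reticulum was 3 to 5, and that of higher genes of the ubiquinone list was 0 to 1. With the library adjustment, 3 genes of acetyl-CoA supply, 1 of ketone body metabolism, 1 of SREBP processing, 3 of cholesterol uptake, 1 of prenylation, 0 of the dolichol list and 3 of the GTPases were higher. With it, 1 gene of SREBP processing, 1 of degradation at the endoplasmic reticulum, 1 GTPase, and 0 genes of cholesterol uptake, prenylation, the dolichol list and the ubiquinone list were lower. By construction this model leaves fewer residual degrees of freedom, and its tests lack the eBayes step of the main fit. It called 606 loci higher and 521 lower in place of 1348 and 2322. For a lost call, the part of the adjustment and that of the test without eBayes cannot be told apart. The cause of the other changes was not tested.

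No pairing of plates by replicate number was visible. Deviations from the group means correlated by 0.00958, 0.00606 and 0.0458 for numbers 1, 2 and 3, and by -0.0454 to 0.035 across numbers. Not every library correlated best with its own number. Such values cannot show whether plates were handled in pairs. With the replicate block 5 of the 6 enzymes were higher, as without it, and GGPS1 had a log2 fold change of 0.43 (adjusted p = 0.013). Depth is unknown, so the number of reads behind the low WT values of IDI1 and MVD cannot be given.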
